A study of Mus musculus with 4 samples.

Results

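The transcripts of 43 chaperone and protein quality control genes were followed in DC2.4 cells, an immortalised mouse dendritic cell line. The genes were taken by symbol from a table of 54532 gene rows, and all 43 had a row of their own. They comprised 17 genes of the cytosolic heat shock system, 6 of the mitochondrial matrix and 20 of the endoplasmic reticulum (ER) and its unfolded protein response. Cells had been given ginsenoside Rb1, a triterpene saponin of ginseng, at 10 uM for 24 h (2 libraries), or vehicle for 24 h (2 libraries). The name Rb1 stands here for the compound and not for the retinoblastoma gene. Both groups were grown in the same serum-containing medium and come from the same single cell line, the labels name no genotype change, and the sources used here do not name the solvent given as vehicle. The labels call the 2 libraries of a group biological replicates without saying how the cultures were kept apart, so the p-values measure the spread between these libraries.

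Molecular chaperones hold unfolded proteins in a state in which they can fold, and each compartment has its own set. In the cytosol, HSP70 proteins bind exposed stretches with the help of J-domain partners and release them with the help of nucleotide exchange factors, while HSP90 acts later on signalling proteins and receptors. The transcription factor HSF1 raises many of these genes under heat or other stress. In the ER, the HSP70 protein BiP, the HSP90 protein GRP94, the lectins calnexin and calreticulin and the disulfide isomerases fold secreted and membrane proteins, and the sensors IRE1, PERK and ATF6 raise their genes when unfolded proteins build up. Dendritic cells depend on calreticulin, tapasin-linked PDIA3 and other ER factors to load peptides onto MHC class I, and HSP90 and HSP70 proteins have been linked to antigen cross-presentation.

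Letter patterns in the promoters differed between the compartments. The sequences are printed here because heat shock elements are known as binding sites of HSF1 and ER stress elements as sites of ATF6 and XBP1. RefSeq promoters (GRCm38.p6, 250 bases before to 50 after the annotated start) were at hand for 36 of the 43 genes, and both strands were searched. The 3-unit heat shock element (GAA and TTC in turn, 2 open bases apart, starting with either) stood in 4 of them, Hsph1, Chordc1, Hspd1 and Hspe1, and in 0.662% of 27025 genes with a promoter entry. Its shorter 2-unit form, GAANNTTC or TTCNNGAA, is part of the longer one and stood in 11 of the 36, against 17.0% of all genes. Of those 11 genes 8 were cytosolic (Hspa1a, Hspa1b, Hsph1, Dnaja1, Bag3, Fkbp4, Chordc1 and Hspb1) and 3 mitochondrial (Hspd1, Hspe1 and Clpp), and 0 of the 18 ER promoters held it. The ER stress element, named ERSE and made of CCAAT and CCACG with 9 open bases between, stood in 8 of the 18 ER promoters and in 0 of the 13 cytosolic and 0 of the 5 mitochondrial ones. Among all genes 37 held it, which is 0.137%. A second form, ATTGG and CCACG with 1 open base between, stood in the ER promoters of Dnajb11 and Herpud1 and in 0.0444% of all genes. Here N or an open base is any base. The box CCAAT alone, which is contained in the first ER stress element, stood in 16 of 18 ER, 7 of 13 cytosolic and 1 of 5 mitochondrial promoters and in 41.1% of all genes. Neither TGACGTGG, an unfolded protein response element held by 0.714% of all genes, nor TGATGNAAT, an amino acid response element held by 1.08%, was in any window of the 36. A match is a match of letters only and does not show that a factor binds there. The ER genes were listed partly for the unfolded protein response, so an excess of its elements among them is no independent result. Promoters of Hspa8, Hsp90aa1 and Hsp90ab1 were not at hand.

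The mitochondrial chaperonin genes Hspd1 and Hspe1 lie head to head on chromosome 1. RefSeq lists 2 starts for Hspd1, and the window of 1 of them holds the same elements as the Hspe1 window printed first (chr1:55087898-55088197, plus strand), in which capitals mark 2 overlapping 3-unit heat shock elements that begin 89 bases before the Hspe1 start. The promoter of the inducible HSP70 gene Hspa1b (chr17:34959189-34959488, minus strand) follows, with a 2-unit element in capitals.

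Hspe1: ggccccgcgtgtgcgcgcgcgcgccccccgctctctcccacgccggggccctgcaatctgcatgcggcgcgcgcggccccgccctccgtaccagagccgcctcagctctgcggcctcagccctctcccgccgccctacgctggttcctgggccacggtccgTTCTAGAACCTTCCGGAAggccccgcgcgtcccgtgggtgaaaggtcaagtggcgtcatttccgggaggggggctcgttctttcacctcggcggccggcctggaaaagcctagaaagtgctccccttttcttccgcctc

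Hspa1b: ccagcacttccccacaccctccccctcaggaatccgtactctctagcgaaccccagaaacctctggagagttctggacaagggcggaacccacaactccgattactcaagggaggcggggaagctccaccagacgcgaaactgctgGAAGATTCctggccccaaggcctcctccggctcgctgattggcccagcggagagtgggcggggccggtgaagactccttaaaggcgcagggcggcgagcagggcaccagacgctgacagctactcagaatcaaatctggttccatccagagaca

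Among ER genes, Hspa5 encodes BiP (chr2:34771840-34772139, plus strand) and Creld2 encodes a secreted ER stress protein (chr15:88819396-88819695, plus strand). Each window has 1 exact match to the ER stress element, in capitals, which in Creld2 reads on the other strand. Near-matches were not searched for.

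Hspa5: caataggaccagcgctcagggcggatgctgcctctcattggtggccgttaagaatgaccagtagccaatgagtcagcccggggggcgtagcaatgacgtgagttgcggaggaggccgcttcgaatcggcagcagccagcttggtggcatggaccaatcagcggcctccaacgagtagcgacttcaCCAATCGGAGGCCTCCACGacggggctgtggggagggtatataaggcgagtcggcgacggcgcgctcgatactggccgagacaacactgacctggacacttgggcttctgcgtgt

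Creld2: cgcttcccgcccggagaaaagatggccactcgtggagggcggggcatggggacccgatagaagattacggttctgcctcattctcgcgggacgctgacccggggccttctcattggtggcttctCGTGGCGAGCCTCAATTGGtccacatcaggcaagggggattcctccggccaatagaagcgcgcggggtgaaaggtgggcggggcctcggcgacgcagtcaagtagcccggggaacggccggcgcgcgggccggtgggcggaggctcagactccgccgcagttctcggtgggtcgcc

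The 9 ER stress elements of the 8 genes are set out along the strand on which they read CCAAT first, with the searched letters in capitals and the open positions in lower case, so that the shared ends and differing middles can be compared. Hsp90b1 has a pair of them, 107 and 212 bases before its start, and the Hspa5 site begins 65 bases before its start.

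Calr: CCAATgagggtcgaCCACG

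Canx: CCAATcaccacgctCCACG

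Creld2: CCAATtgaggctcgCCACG

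Dnajc3: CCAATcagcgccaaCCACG

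Hsp90b1: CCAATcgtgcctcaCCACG

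Hsp90b1: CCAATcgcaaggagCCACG

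Hspa5: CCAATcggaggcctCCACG

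Pdia6: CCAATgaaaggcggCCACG

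Syvn1: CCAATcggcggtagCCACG

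The libraries held between 17829784 and 18641021 counts. Levels are CPM, the counts scaled to equal library sizes with TMM factors. Where genes are set against each other they are given as CPM per kb of gene length. Of the 13518 genes with enough counts to be tested, 72.0% passed an adjusted p under 0.05 in edgeR's quasi-likelihood test, 35.7% higher and 36.3% lower with Rb1. Replicates differed by more than counting noise, with a chi-square per degree of freedom of 2.87 between the Rb1 libraries and 11.8 between the vehicle libraries. The labelled cell type was checked on its markers. Of 8 dendritic cell markers 6 had at least 10 counts in every library, 2 of them higher and 4 lower with Rb1. The 8 together summed to between 947 and 964 CPM with Rb1 and between 1510.4 and 1527 CPM with vehicle, led by Cd74. Itgax fell furthest, from 27.6 and 30.3 CPM with vehicle to 3.55 and 3.10 CPM with Rb1 (log2 fold change -3.12). Cd74, Irf8 and Spi1 were also lower, and Zbtb46 and Ptprc were higher. Flt3 had 2 and 0 counts with Rb1 and 0 and 0 with vehicle. Batf3 had 1 and 1 with Rb1 and 3 and 5 with vehicle. Macrophage markers were also present, summing to between 979 and 981 CPM with Rb1 and between 1557 and 1590 CPM with vehicle (3 of 4 lower, with Mertk at 0 to 1 counts). Markers of fibroblasts, T cells, B cells and epithelial cells each summed to at most 0.200 CPM with Rb1 and 0.833 CPM with vehicle, with Cd3e and Epcam at 0 everywhere. Whether the change in myeloid markers bears on the chaperone values was not tested. In bulk RNA, fewer cells of a kind and less RNA per cell cannot be told apart.

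Of the 43 genes 41 could be tested, and 28 of these were called, 18 higher and 10 lower with Rb1. This is 68.3% of the tested genes and near the 72.0% of all genes. Their median log2 fold change was 0.14, against -0.01 over all genes tested. Of the 41 genes 7 (17.1%) were called at 2-fold or more, 4 higher and 3 lower, against 30.5% of all genes (14.2% higher and 16.2% lower). The other 13 tested genes were not called. With library totals in place of TMM factors the split was 25 higher and 7 lower, so that 78.1% of the calls were higher, against 64.3% with TMM factors, while the median over all genes moved to 0.23 and that of the chaperones to 0.38 on the log2 scale. Directions given here are relative to the TMM scale.

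**Figure D1:**
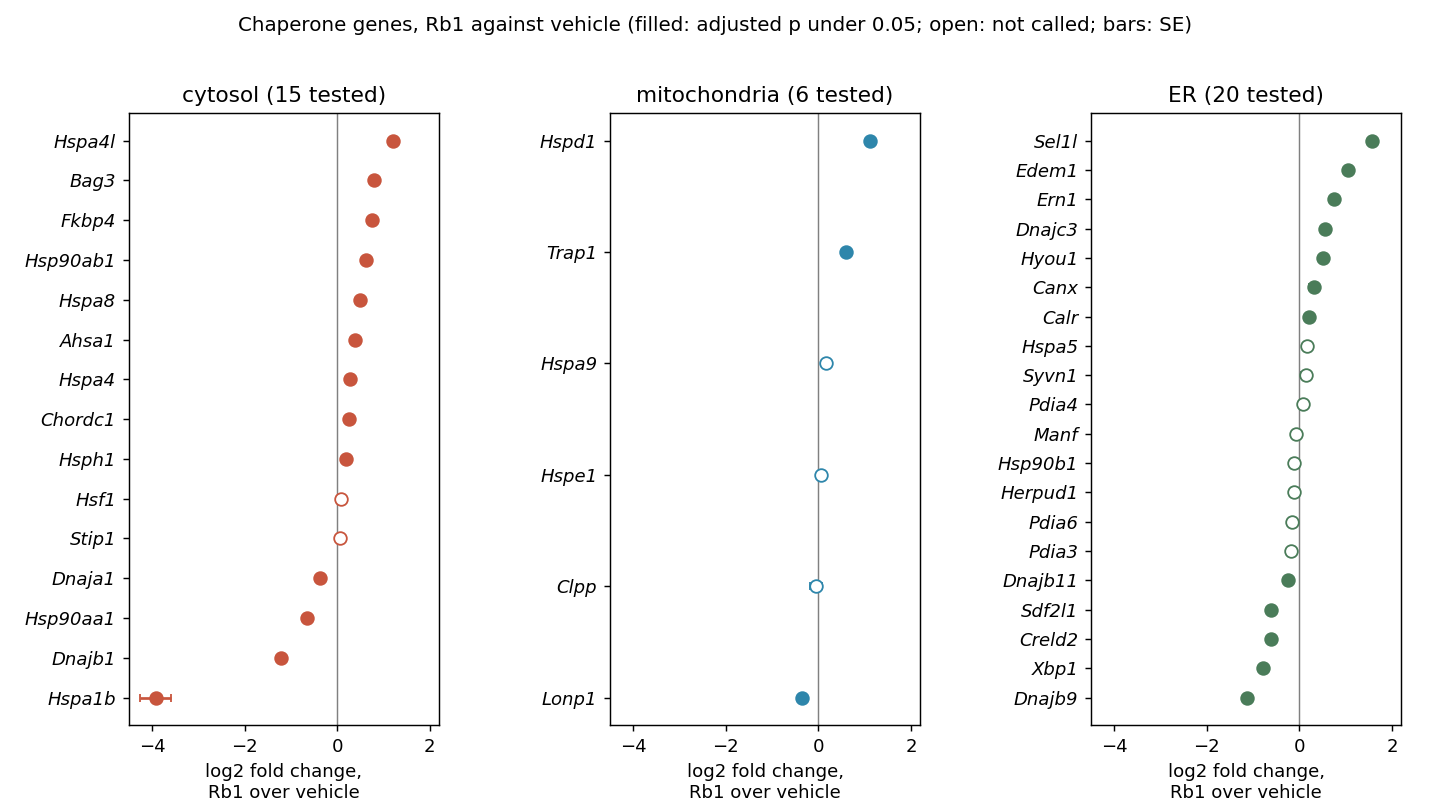
Log2 fold change of each of the 41 tested chaperone genes, Rb1 over vehicle, with its standard error (bars, mostly smaller than the points), in 3 panels for cytosol, mitochondria and ER. Filled points passed an adjusted p under 0.05 and open points did not. Hspa1b lies far below the rest at -3.92, while Sel1l at 1.56, Hspa4l at 1.21 and Hspd1 at 1.11 lie highest.

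Gene length moved together with the fold changes of all genes tested, and less evenly with those of the chaperones. Among all genes tested, models over 5 kb were called higher in 56.9% and lower in 20.3% of cases, and models of 1 to 2 kb higher in 14.0% and lower in 56.0%. Among the chaperones, 11 had models over 5 kb, of which 9 were higher and 1 lower, and 4 had models of 1 to 2 kb, of which 0 were higher and 2 lower. Both shares run the same way as those of all genes, but the 11 chaperones with models of 2 to 3 kb did not. Of these, 6 were higher and 2 lower, with a median log2 fold change of 0.21, against -0.27 over all genes of that length. Of the 15 chaperones with models of 3 to 5 kb, 3 were higher and 5 lower (median -0.11, against -0.05 over all genes of that length). Each gene's value after the length trend of each library was removed is therefore given below where it changes the call, the direction or the fold by over 1.5 times. With that trend removed, 21 of the 28 calls were kept, 2 were called in the other direction and 5 were lost. Of 15 tested cytosolic genes 13 were called as measured, 9 higher and 4 lower. This is 86.7%, against 72.0% of all genes. With the length trend removed, 7 cytosolic genes were called higher and 7 lower.

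**Figure D2:**
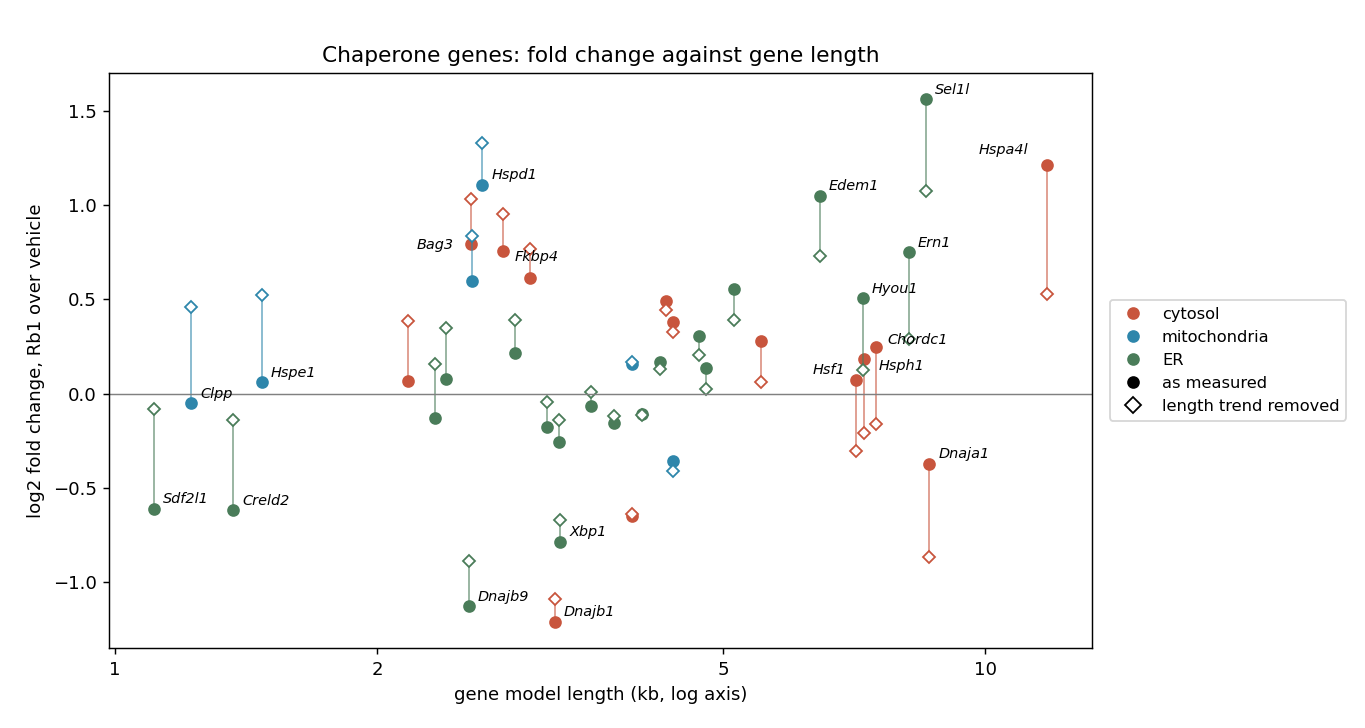
Log2 fold change, Rb1 over vehicle, against gene model length in kb (log axis) for 40 of the tested chaperone genes (Hspa1b, at -3.92, is left out of the plot for scale). Filled circles are the measured values, open diamonds the values after the length trend of each library was removed, and colours the compartments. Removing the trend lowers long genes such as Sel1l, Hspa4l and Ern1 and raises short ones such as Clpp, Hspe1, Sdf2l1 and Creld2.

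Cytosolic HSP70 genes split by kind: the stress-inducible Hspa1b fell and the constitutive Hspa8 rose. Hspa1b (ENSMUSG00000090877, chr17:34956436-34959238, GRCm38) had 15 and 7 counts with Rb1, against 171 and 115 counts with vehicle. That is 0.750 and 0.361 CPM with Rb1 and 10.2 and 6.84 CPM with vehicle, so the groups lie far apart although the vehicle libraries themselves differ. It was 15.1-fold lower (log2 fold change -3.92, SE 0.34, adjusted p = 9.9e-07). Leaving out 1 library at a time gave -3.49 to -4.53, the ends being without Rb1 replicate 2 and without Rb1 replicate 1. On the log2(FPKM + 1) scale, which understates low genes, the change was -1.73. The near-identical copy Hspa1a had 1 and 0 counts with Rb1 and 0 and 1 with vehicle and was not tested. Reads from this pair could have been placed on either gene, so their single values are uncertain. Hspa8, which encodes HSC70, stood at 2031 and 2079 CPM with Rb1, against 1456 and 1470 CPM with vehicle. Both Rb1 libraries were higher, by 1.40-fold (log2 fold change 0.49, SE 0.08, adjusted p = 2.05e-04). Per kb, Hspa8 was 1766 and 3752 times the level of Hspa1b in the Rb1 libraries, where the divisor rests on 15 and 7 counts, and 92.7 and 140.02 times in the vehicle libraries.

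The HSP110 genes encode nucleotide exchange factors that reload HSP70, and all of the 3 measured were called higher. Hspa4l had 51.0 and 50.6 CPM with Rb1, against 21.4 and 22.4 CPM with vehicle. It was 2.32-fold higher (log2 fold change 1.21, SE 0.09, adjusted p = 2.74e-07), and with the length trend removed its log2 fold change was 0.53, still called. Its relatives moved less. Hspa4 averaged 421 ± 3.93 CPM with Rb1 and 347 ± 23.3 with vehicle (SD, n = 2 each, as for every mean below), a log2 fold change of 0.28 (adjusted p = 0.00668). Hsph1, which encodes HSP105, averaged 164 ± 0.0593 CPM with Rb1 and 145 ± 5.85 with vehicle, a log2 fold change of 0.18 (adjusted p = 0.0338). Both calls depended on the processing. Leaving out Rb1 replicate 1 gave an adjusted p of 0.0995 for Hspa4 and 0.233 for Hsph1, and leaving out Rb1 replicate 2 gave 0.0788 and 0.233. DESeq2 did not call Hsph1 (adjusted p = 0.0849). With the replicate number as a block Hsph1 was not called (adjusted p = 0.0721). With the length trend removed Hspa4 was not called (log2 fold change 0.06, adjusted p = 0.351) and Hsph1 turned lower (-0.21, adjusted p = 0.0044).

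The J-domain genes Dnajb1 and Dnaja1, partners of HSP70, fell and the exchange factor gene Bag3 rose. Other J-domain genes, described below, moved in both directions. Dnajb1, which encodes the inducible HSP40, had 36.1 and 38.4 CPM with Rb1, against 88.6 and 83.5 CPM with vehicle. The groups do not overlap, and the level was 2.31-fold lower (log2 fold change -1.21, SE 0.08, adjusted p = 1.6e-07). Dnaja1 averaged 248 ± 6.997 CPM with Rb1 and 321 ± 9.95 with vehicle, a log2 fold change of -0.37 (adjusted p = 5.82e-04). It became -0.87 with the length trend removed and -0.13 with library totals, where it was not called (adjusted p = 0.169). The Dnaja1 model shares 608 bases with Smu1 on the other strand, and the sources used here do not say whether the counting used strand. Bag3, a co-chaperone that links HSP70 to selective autophagy, averaged 54.6 ± 0.707 CPM with Rb1 and 31.5 ± 1.51 with vehicle, 1.73-fold higher (adjusted p = 6.4e-06). Per kb, Hspa8 was 41.9 and 40.3 times the level of Dnajb1 in the Rb1 libraries, and 12.2 and 13.1 times in the vehicle libraries.

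The paralogous cytosolic HSP90 genes moved apart. Hsp90ab1, the constitutive beta form and the most abundant gene of all 43 per kb, stood at 3490 and 3560 CPM with Rb1, against 2224 and 2386 CPM with vehicle (1.53-fold higher, log2 fold change 0.61, SE 0.09, adjusted p = 5.96e-05). Hsp90aa1, the stress-inducible alpha form, stood at 1350 and 1326 CPM with Rb1, against 2140 and 2055 CPM with vehicle (1.57-fold lower, log2 fold change -0.65, SE 0.08, adjusted p = 2.38e-05). In neither gene do the groups overlap. The ratio of beta to alpha per kb, which does not depend on how libraries are scaled, was 3.39 and 3.52 in the Rb1 libraries and 1.36 and 1.52 in the vehicle libraries. With 2 libraries a group an exact permutation test, two-sided, cannot give a p below 0.333, so no p is given for the ratios. The pair is close in sequence, and some reads of one may have been counted to the other.

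Among the 43 genes, HSP90 co-chaperones rose or did not pass. Those outside the 43 are counted in a wider list below, which held calls in both directions. Fkbp4, an HSP90-bound prolyl isomerase of steroid receptor complexes, averaged 348 ± 4.73 CPM with Rb1 and 206 ± 11.6 with vehicle (1.69-fold higher, adjusted p = 2.54e-06). Ahsa1, the activator of the HSP90 ATPase, averaged 164 ± 2.44 CPM with Rb1 and 126 ± 2.88 with vehicle (1.30-fold, adjusted p = 3.87e-04). Chordc1, another HSP90 partner, averaged 105 ± 1.48 CPM with Rb1 and 88.6 ± 2.71 with vehicle (log2 fold change 0.25, adjusted p = 0.0111). Its call was lost on leaving out either Rb1 library (adjusted p = 0.0978 and 0.145), and with the length trend removed it was lower (-0.16, adjusted p = 0.0475). Stip1, which bridges HSP70 and HSP90, averaged 366 ± 4.24 CPM with Rb1 and 349 ± 16.6 with vehicle and was not called (log2 fold change 0.07, adjusted p = 0.421). It was called higher without vehicle replicate 2 (adjusted p = 0.0217), with library totals (0.31) and with the length trend removed (0.38).

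The regulator gene Hsf1 was not called, at 58.3 ± 0.336 CPM with Rb1 and 55.4 ± 0.0347 with vehicle (log2 fold change 0.07, adjusted p = 0.419). Its value was 0.32 with library totals and -0.30 with the length trend removed, both called. Hspb1, the small heat shock protein gene, had 2 and 0 counts with Rb1 and 0 and 0 with vehicle and was not tested. A count of 0 allows up to 3 counts, or between 0.150 and 0.180 CPM in these libraries, for counting error only. Taken by promoter letters, the 11 genes with a 2-unit heat shock element comprised 5 called higher, 2 called lower, 2 not called and 2 not tested. Among all genes tested 35.7% were called higher and 36.3% lower. Of the 5 called higher, Hsph1 and Chordc1 were called lower with the length trend removed. These few genes are described only and were not tested as a set.

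**Figure D3:**
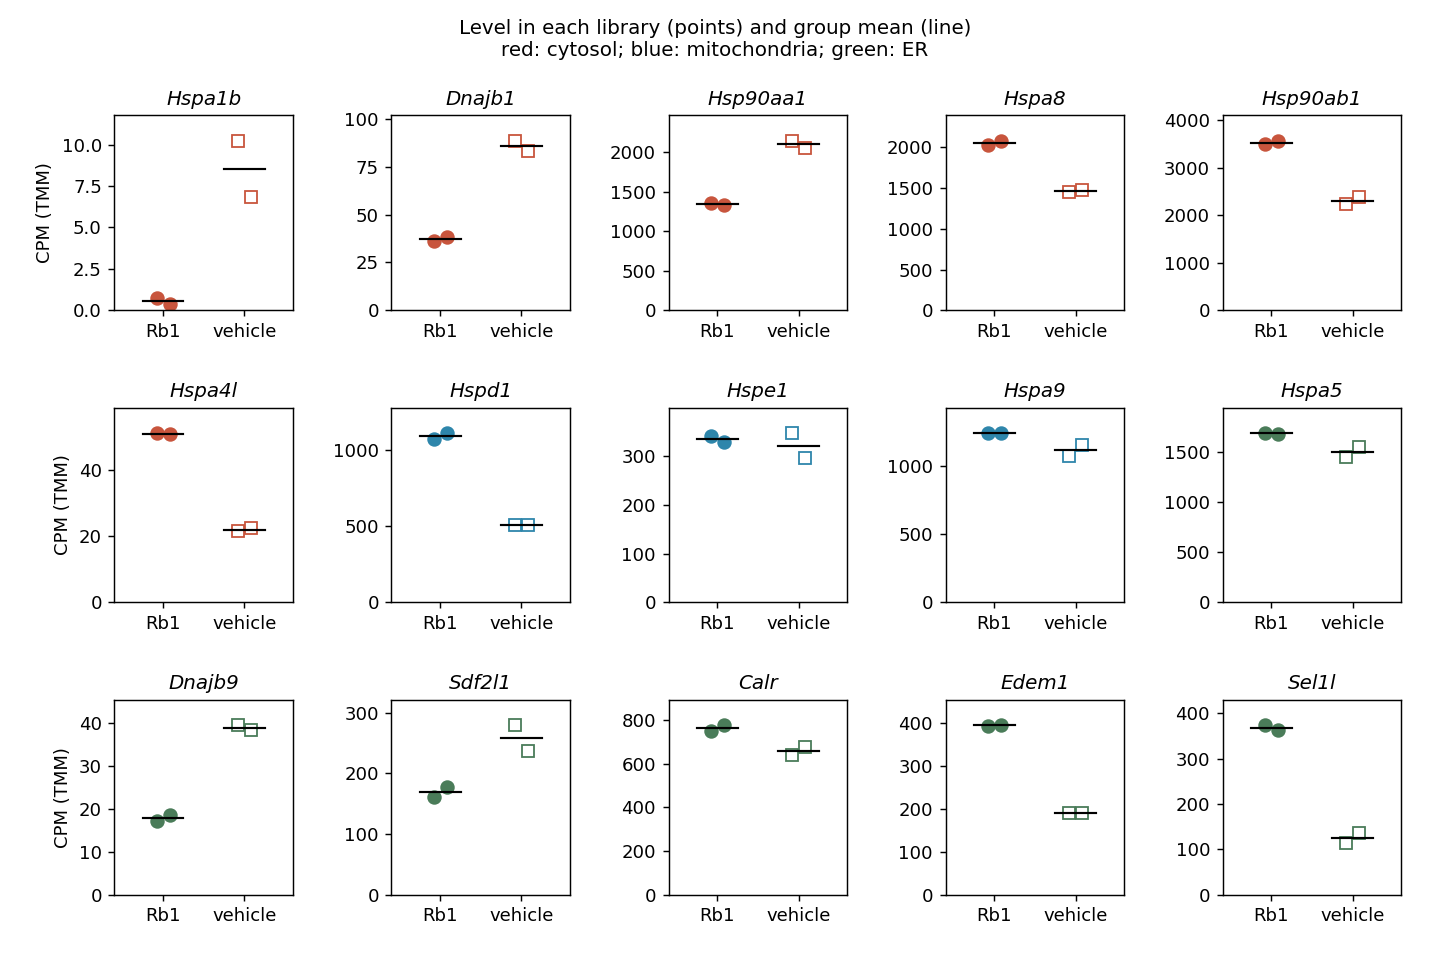
CPM after TMM scaling in each library for 15 chaperone genes, with Rb1 (filled circles) left of vehicle (open squares) and the group mean as a line, each axis starting at 0. Red marks cytosolic, blue mitochondrial and green ER genes. The groups are apart in Hspa1b, Dnajb1, Hsp90aa1, Dnajb9 and Sdf2l1 (lower with Rb1) and in Hspa8, Hsp90ab1, Hspa4l, Hspd1, Edem1 and Sel1l (higher). They are also apart, by less, in Hspa5, Hspa9 and Calr (higher), of which only Calr was called. In Hspe1 they overlap. With 2 libraries a group, lying apart carries little weight by itself, and its share over all genes is not given here.

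In mitochondria the chaperonin gene Hspd1 and the HSP90 gene Trap1 rose, the protease gene Lonp1 fell, and the other 3 of 6 were not called. The share called was 50%, against 72.0% of all genes tested. Hspd1, which encodes HSP60 (ENSMUSG00000025980, chr1:55077835-55088243, GRCm38), had 1077 and 1115 CPM with Rb1, against 508 and 509 CPM with vehicle (2.15-fold higher, log2 fold change 1.11, SE 0.08, adjusted p = 1.87e-07). Its partner Hspe1, which encodes the HSP10 lid of the same folding chamber, had 341 and 330 CPM with Rb1, against 348 and 296 CPM with vehicle. The Hspe1 groups overlap (log2 fold change 0.06, SE 0.09, adjusted p = 0.539), while the heat shock elements of the Hspe1 window printed above also lie in a Hspd1 window. Per kb, Hspd1 was 1.76 and 1.88 times Hspe1 in the Rb1 libraries and 0.816 and 0.961 times in the vehicle libraries. Hspe1 has a shorter model, of 1474 bases against 2642 for Hspd1. With the length trend removed both were called higher, Hspd1 at 1.33 and Hspe1 at 0.52. The models of the pair overlap by 112 bases on opposite strands.

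Hspa9, the mitochondrial HSP70 known as mortalin, had 1238 and 1238 CPM with Rb1, against 1069 and 1153 CPM with vehicle. Both Rb1 libraries were above the vehicle ones, but the difference was not called (log2 fold change 0.16, SE 0.08, adjusted p = 0.108). Trap1 averaged 177 ± 0.750 CPM with Rb1 and 117 ± 6.95 with vehicle (1.51-fold higher, adjusted p = 1.66e-05). Lonp1, the matrix protease that degrades oxidised proteins, averaged 320.3 ± 5.51 CPM with Rb1 and 410.0 ± 28.4 with vehicle (log2 fold change -0.36, adjusted p = 0.00139), and was not called without Rb1 replicate 2 (adjusted p = 0.0517) or with library totals (-0.11, adjusted p = 0.257). Clpp, the other matrix protease gene, averaged 46.9 ± 4.65 CPM with Rb1 and 48.5 ± 9.12 with vehicle and was not called (log2 fold change -0.05, adjusted p = 0.727). With the length trend removed all 6 mitochondrial genes were called, 5 higher and 1 lower, with Clpp at 0.46 and Hspa9 at 0.17 (adjusted p = 0.0293). Calls numbered 5 of 6 without vehicle replicate 1 (4 higher) and 5 of 6 without vehicle replicate 2 (3 higher and 2 lower), and the lone vehicle library is then assumed to vary like the Rb1 libraries.

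Hspa5, Hsp90b1 and the 3 disulfide isomerase genes of the ER were not called, whereas Sel1l, Edem1 and Ern1 rose and Dnajb9 and Xbp1 fell. Of 20 ER genes 7 were higher, 5 lower and 8 not called, with a median log2 fold change of 0.01. The share called was 60%, with 35% higher and 25% lower. Over all genes tested it was 72.0%, with 35.7% higher and 36.3% lower. The split of the ER genes depended on the processing. With the length trend removed 8 were higher and 2 lower, and with library totals 10 were higher and 4 lower. Hspa5 (BiP) had 1689 and 1684 CPM with Rb1, against 1451 and 1552 CPM with vehicle. The Rb1 libraries were slightly above the vehicle ones without being called (log2 fold change 0.17, SE 0.08, adjusted p = 0.0894). Hsp90b1 (GRP94) averaged 729 ± 16.3 CPM with Rb1 and 785 ± 47.0 with vehicle (log2 fold change -0.11, adjusted p = 0.244). The disulfide isomerases Pdia3, Pdia4 and Pdia6 lay at log2 fold changes of -0.18, 0.08 and -0.16 and none was called (adjusted p = 0.0502, 0.343 and 0.0716), although Pdia3 was called lower by DESeq2 (0.0342), limma-voom (0.0344), with RLE factors (0.0438) and with the CPM filter (0.0438). Pdia4 was called higher with library totals (0.32, adjusted p = 0.00217) and with the length trend removed (0.35, adjusted p = 1.29e-04). Manf, a secreted ER stress protein, lay at -0.07 (adjusted p = 0.459), with a model that overlaps Rbm15b on its own strand. Hyou1, the HSP110 of the ER, was called higher, at 428 ± 0.122 CPM with Rb1 and 301 ± 19.9 with vehicle (1.42-fold higher, adjusted p = 9.32e-05), and its log2 fold change was 0.12 and not called with the length trend removed (adjusted p = 0.071). Without vehicle replicate 1 or vehicle replicate 2 the count of ER genes called lower was 9 or 8 in place of 5, with Pdia3 and Pdia6 lower in both cases.

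The lectin chaperones of the calnexin cycle were slightly higher. Calr had 749 and 776 CPM with Rb1, against 639 and 675 CPM with vehicle (log2 fold change 0.21, SE 0.08, adjusted p = 0.027). Canx averaged 976 ± 19.0 CPM with Rb1 and 790 ± 79.4 with vehicle (log2 fold change 0.30, adjusted p = 0.00896). Leaving out Rb1 replicate 1 ended both calls (adjusted p = 0.183 for Calr and 0.121 for Canx), as did leaving out Rb1 replicate 2 (0.299 for Calr and 0.0762 for Canx). Calr was also not called with the replicate number as a block (adjusted p = 0.0863). The ratio of Calr to Canx per kb, 1.23 and 1.31 in the Rb1 libraries and 1.42 and 1.30 in the vehicle libraries, overlapped between the groups.

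Of the J-domain and small ER factors, Dnajb9, Sdf2l1, Creld2 and Dnajb11 fell and Dnajc3 rose. Dnajb9, which encodes ERdj4, a J protein that guides BiP to misfolded substrates and to IRE1, had 17.2 and 18.5 CPM with Rb1, against 39.5 and 38.4 CPM with vehicle. It was 2.18-fold lower (log2 fold change -1.13, SE 0.10, adjusted p = 1.05e-06), with the groups apart. Sdf2l1, a partner of ERdj3, had 160 and 178 CPM with Rb1, against 279 and 237 CPM with vehicle (log2 fold change -0.61, SE 0.09, adjusted p = 8.56e-05). Creld2 averaged 57.4 ± 0.543 CPM with Rb1 and 88.1 ± 2.50 with vehicle (log2 fold change -0.62, adjusted p = 2.32e-05). Sdf2l1 and Creld2 have short models, of 1108 and 1366 bases, and with the length trend removed neither was called (-0.08 and -0.14, adjusted p = 0.245 and 0.091). Dnajb11 (ERdj3) averaged 113 ± 1.94 CPM with Rb1 and 135 ± 9.44 with vehicle (log2 fold change -0.26, adjusted p = 0.0102). Its call was lost on leaving out either Rb1 library (adjusted p = 0.157 without Rb1 replicate 1 and 0.0978 without Rb1 replicate 2), with library totals (-0.01) and with the length trend removed (-0.14). Dnajc3, which encodes the PERK-binding co-chaperone p58IPK, averaged 41.5 ± 0.284 CPM with Rb1 and 28.2 ± 2.61 with vehicle (1.47-fold higher, adjusted p = 2.72e-04). Per kb, Hspa5 was 59.2 and 54.8 times the level of Dnajb9 in the Rb1 libraries and 22.1 and 24.3 times in the vehicle libraries.

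Sel1l and Edem1, of ER-associated degradation, gave the largest rises of the ER set. Degradation genes outside the 43, counted below, were more often lower than higher. Sel1l, the adaptor of the HRD1 ubiquitin ligase (ENSMUSG00000020964, chr12:91806043-91849157, GRCm38), had 374 and 362 CPM with Rb1, against 114 and 136 CPM with vehicle. It was 2.95-fold higher (log2 fold change 1.56, SE 0.09, adjusted p = 3.63e-08), and 1.08 on the log2 scale with the length trend removed. Edem1, which delivers misfolded glycoproteins to the ligase, had 395 and 396 CPM with Rb1, against 191 and 191 CPM with vehicle (2.07-fold higher, log2 fold change 1.05, SE 0.07, adjusted p = 1.24e-07). The ligase gene Syvn1 itself, which encodes HRD1, averaged 27.1 ± 1.04 CPM with Rb1 and 24.6 ± 0.777 with vehicle and was not called (log2 fold change 0.14, adjusted p = 0.227). Its model overlaps Mrpl49 by 83 bases on the other strand. Herpud1, a stress-induced component of the same complex, averaged 143 ± 1.68 CPM with Rb1 and 156 ± 6.14 with vehicle (log2 fold change -0.13, adjusted p = 0.119), and was called higher with the length trend removed (0.16, adjusted p = 0.0422). The ratio of Sel1l to Syvn1 per kb was 7.91 and 7.27 in the Rb1 libraries and 2.63 and 3.01 in the vehicle libraries.

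The IRE1 branch of the unfolded protein response moved in opposite directions at its sensor and its factor. Ern1, which encodes IRE1 alpha, averaged 61.3 ± 0.234 CPM with Rb1 and 36.4 ± 4.31 with vehicle (1.68-fold higher, log2 fold change 0.75, adjusted p = 2.4e-05). With the length trend removed the rise was 0.29 on the log2 scale and still called (adjusted p = 0.00401). Xbp1, whose mRNA IRE1 splices, averaged 196 ± 2.96 CPM with Rb1 and 338 ± 0.484 with vehicle (1.72-fold lower, log2 fold change -0.78, adjusted p = 1.19e-06). Gene counts do not separate spliced from unspliced Xbp1. The ratio of Ern1 to Xbp1 per kb was 0.125 and 0.123 in the Rb1 libraries and 0.0393 and 0.0464 in the vehicle libraries. Among the 8 genes with an ER stress element, 3 were higher (Dnajc3, Calr and Canx), 1 was lower (Creld2) and 4 were not called (Hspa5, Hsp90b1, Pdia6 and Syvn1). Over all genes tested 35.7% were higher and 36.3% lower.

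**Figure D4:**
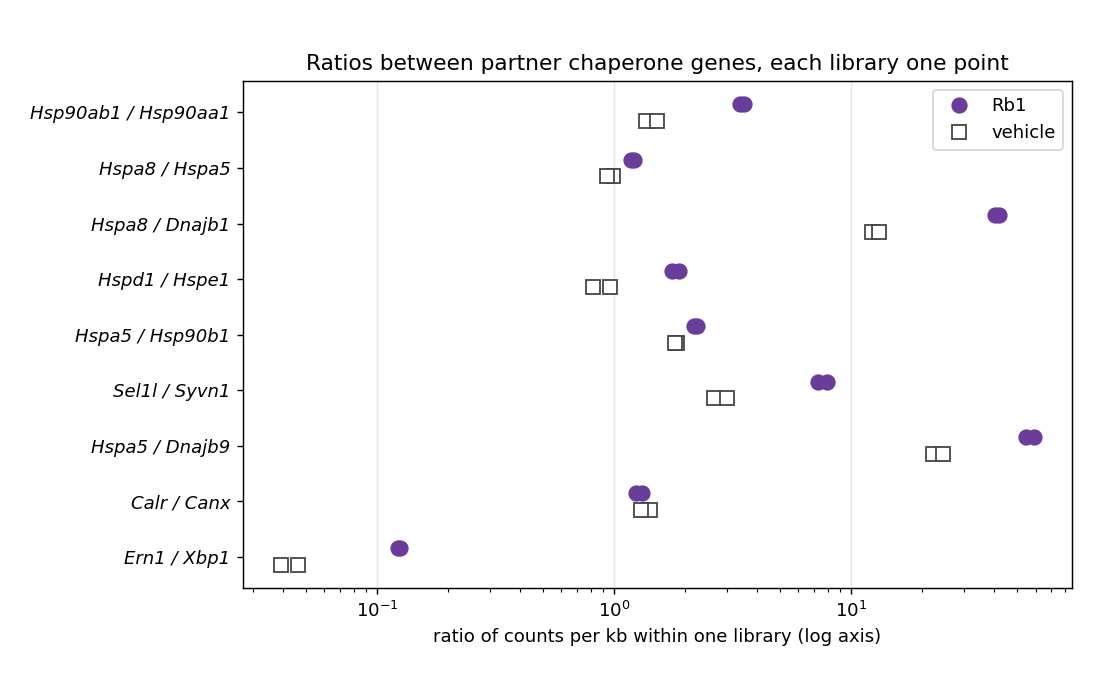
Ratio of counts per kb between 9 pairs of partner genes within each library (log axis), with Rb1 as filled circles above vehicle as open squares. A ratio within a library does not depend on library scaling. Calr to Canx overlaps between the groups, and in the other 8 pairs the Rb1 libraries lie above the vehicle ones. In each of those 8 pairs the gene written first is the one with the higher fold change. Their common direction follows from that order and is not a result. The ratio of Hspa8 to Hspa1b, given in the text, is not plotted.

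Added up per kb, the cytosolic genes held 2511 ± 24.6 CPM per kb with Rb1 and 2089 ± 38.2 with vehicle, the mitochondrial genes 1137 ± 7.28 with Rb1 and 872 ± 8.12 with vehicle, and the ER genes 2000.2 ± 14.8 with Rb1 and 2013 ± 27.3 with vehicle. Sums are led by a few genes, above all Hsp90ab1. As a plain share of all counts, without TMM scaling, the ER genes took 0.815% ± 1.08e-04 with Rb1 and 0.633% ± 0.0406 with vehicle. These shares are not divided by gene length, whereas the sums above are.

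Other genes of the same pathways, 134 in 7 lists, were counted alongside, of which 125 were tested, 37 higher (29.6%) and 56 lower (44.8%). The 74.4% called is near the 72.0% of all genes, of which 35.7% were higher and 36.3% lower, and the counts of each list stand beside that background. Among 28 tested cytosolic HSP70, J-domain and HSP90 co-chaperone genes 8 were higher and 9 lower (median log2 fold change -0.03), and with library totals 15 were higher and 4 lower. Bag4, another BAG-domain exchange factor, averaged 35.04 ± 1.006 CPM with Rb1 and 12.3 ± 0.181 with vehicle, and Ppid, the HSP90-bound cyclophilin 40, averaged 429.9 ± 4.48 with Rb1 and 207 ± 4.13 with vehicle, 2.86-fold and 2.07-fold higher. The J-domain gene Dnajb6 averaged 244 ± 1.81 CPM with Rb1 and 501 ± 19.9 with vehicle (2.05-fold lower, adjusted p = 2.03e-07). Of 8 small heat shock protein and heat shock factor genes 4 were tested, 2 higher and 1 lower, and Hspb6 averaged 15.02 ± 1.45 CPM with Rb1 and 6.47 ± 0.689 with vehicle (2.32-fold higher). In that small list 1 gene was called without Rb1 replicate 1 and 1 with the length trend removed.

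Of the 8 subunit genes of TRiC, the cytosolic chaperonin that folds actin and tubulin, 1 was higher, 2 were lower and 5 were not called. Of the 6 genes of prefoldin, the complex that hands chains to TRiC, 5 were lower and 1 higher. Pfdn5 averaged 81.5 ± 4.71 CPM with Rb1 and 185 ± 26.2 with vehicle (2.27-fold lower, adjusted p = 6.65e-07), with Pfdn6 and Pfdn1 1.54-fold and 1.72-fold lower. Prefoldin models are short, with a median of 1665.5 bases, and in the joint list 2 were higher and 6 lower with the length trend removed, against 2 and 7 as measured. The joint list had 0 higher without Rb1 replicate 2, 1 without Rb1 replicate 1, 4 without vehicle replicate 1, 1 with the replicate number as a block and 6 (with 6 lower) with library totals. Of 16 further mitochondrial genes 7 were higher and 5 lower. Pitrm1, a matrix peptidase that clears presequences, averaged 272 ± 2.01 CPM with Rb1 and 86.2 ± 9.15 with vehicle (3.16-fold higher), and the protease gene Htra2 was 1.92-fold higher. Grpel1, the nucleotide exchange factor of mortalin, averaged 143 ± 4.64 CPM with Rb1 and 302 ± 32.6 with vehicle (2.12-fold lower, adjusted p = 4.5e-07).

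Of 30 tested further ER folding genes 16 were lower (53.3%, against 36.3% of all genes) and 8 higher (26.7%, against 35.7%) (median log2 fold change -0.35, with 12 higher and 14 lower with library totals). The higher count was 4 without Rb1 replicate 1 and 5 without Rb1 replicate 2. P4hb, the founding disulfide isomerase and a subunit of collagen prolyl hydroxylase, averaged 777 ± 5.25 CPM with Rb1 and 3786 ± 135 with vehicle, 4.87-fold lower (adjusted p = 1.93e-09), unlike the isomerase genes described above. Ppib, the ER cyclophilin, was 2.65-fold lower, and the ER membrane J-protein gene Dnajb14 was 3.16-fold higher. Of 18 other degradation genes 11 were lower and 4 higher, or 7 lower and 6 higher with library totals. The lectin gene Os9 and the extraction factor gene Ufd1 were 1.73-fold and 1.80-fold lower, while Vcp, the p97 ATPase that pulls proteins out of the membrane, averaged 600.3 ± 9.64 CPM with Rb1 and 342 ± 10.51 with vehicle (1.76-fold higher, adjusted p = 1.61e-06).

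Sensors and effectors of the unfolded protein response also differed from each other, with 6 of 15 higher and 7 lower. Ppp1r15a, the GADD34 phosphatase subunit that reverses PERK signalling, averaged 23.4 ± 0.728 CPM with Rb1 and 102 ± 0.264 with vehicle (4.36-fold lower, adjusted p = 2.16e-09). Ddit3, which encodes the transcription factor CHOP, averaged 101 ± 9.17 CPM with Rb1 and 339 ± 41.0 with vehicle (3.36-fold lower, adjusted p = 3.02e-08), and the ER membrane gene Wfs1 was 2.67-fold lower. The sensor genes Atf6 and Eif2ak3, which encodes PERK, were looked up after their values were seen because they stand beside Ern1. Atf6 averaged 258 ± 1.25 CPM with Rb1 and 142 ± 10.4 with vehicle (1.82-fold higher, adjusted p = 1.06e-06). Eif2ak3 averaged 25.3 ± 1.30 CPM with Rb1 and 15.6 ± 1.83 with vehicle (1.62-fold higher, adjusted p = 2.3e-04). Both have models over 5 kb, as Ern1 has.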

How the data were processed

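RNA of DC2.4 cells was sequenced in pairs on an Illumina instrument, per the labels' protocols, and the sources used here do not give the kit, read length, strand use, aligner or counting program. The authors deposited raw counts per gene, whole numbers with unequal totals, without pooling replicates. The authors also deposited FPKM values, scaled by gene length and library size. Builds GRCm39 and mm39 are named by the submitters' processing notes, but the table's coordinates follow GRCm38, the build given here.

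Genes were tested with edgeR 4.0.16 in R 4.3.3 (quasi-likelihood, TMM, filterByExpr, robust, no covariates, which leaves 2 residual degrees of freedom, two-sided, Benjamini-Hochberg over 13518 genes). The SE is the size of the log2 fold change over the square root of F. Alternatives used DESeq2 1.42.0, limma 3.58.1 (voom, and trend with pseudocounts of 1 or 0.1 FPKM above a mean of 0.5 FPKM, or 1 FPKM unfiltered), other scalings and filters, a replicate block, a loess length trend (span 0.5) removed per library, and each library left out. The procedure was tested on simulated counts. Replicate numbers stand in the batch field of the labels, which may or may not mean a shared batch, and deviations of same-numbered libraries correlated at -0.05 across genes. The test therefore has no block, and the blocked value is given where it changes a call.

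The members and lists were chosen with earlier results of these data known, so counts are descriptions. All 43 members are accounted for. Values per library are given for members called at 2-fold or more, the 3 of each compartment with the highest level per kb and those not tested. From each other list, the 3 genes called with the smallest p and a log2 change of at least 0.5 are named. Symbols turned into dates (27) were restored from gene IDs, and of 2 rows named Ddit3 the one with counts was used. Promoters are RefSeq's; 7 members (Hsp90ab1, Hsp90aa1, Manf, Hyou1, Hspa9, Hsf1 and Hspa8) had no entry.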

Additional observations from a re-analysis of the deposited data

How the results depend on the processing

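Of the 28 called genes 17 kept direction and call under all 16 alternatives: Hspa1b, Hspa8, Hspa4l, Dnajb1, Bag3, Hsp90aa1, Hsp90ab1, Ahsa1, Fkbp4, Hspd1, Trap1, Dnajb9, Dnajc3, Edem1, Sel1l, Ern1 and Xbp1. The number of chaperones called lay between 21 and 35, and leaving out 1 library gave both ends, 21 without Rb1 replicate 2 and 35 without either vehicle replicate. DESeq2 called 28 (17 higher) and limma-voom 29. With the replicate number as a block 26 were called, the losses being Hsph1 and Calr, and it changed no other chaperone's call. Removing the length trend turned Hsph1 to -0.21, Chordc1 to -0.16, Hsf1 to -0.30, Clpp to 0.46, Manf to 0.0063 and Herpud1 to 0.16 on the log2 scale, and with the replicate block added to the same values, Manf to 0.0072. Library totals turned Clpp to 0.20, Hsp90b1 to 0.14, Manf to 0.18, Pdia3 to 0.0709, Pdia6 to 0.0880 and Herpud1 to 0.12. Leaving out 1 library at a time gave ranges that crossed 0, of -0.0502 to 0.174 for Hspe1, -0.229 to 0.15 for Clpp and -0.139 to 0.00412 for Manf. Of these genes only Hsph1 and Chordc1 had been called; the cause was not tested, beyond the length trend being what was removed. With 2 libraries a group, differences near the size of the vehicle spread could not be settled, and Hspa1a and Hspb1 lay under the depth needed.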

Other observations

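Protein-coding genes in none of the lists whose symbols begin with Dnaja, Dnajb, Dnajc, Hsp, Pdia, Bag or Fkbp numbered 42. The symbols alone chose them, and not all are chaperones, since Hspg2 encodes the matrix proteoglycan perlecan. Of the 42, 29 were tested, 6 higher, 11 lower and 12 not called with Rb1 (median log2 fold change -0.19). Over all genes tested 72.0% were called, 35.7% higher and 36.3% lower. Those named were picked after their values were seen. Dnajc5, which encodes cysteine string protein of secretory vesicles, averaged 85.6 ± 0.533 CPM with Rb1 and 214 ± 14.4 with vehicle (log2 fold change -1.32, adjusted p = 3.51e-08). Dnajc13, an endosomal J protein, averaged 108 CPM with Rb1 and 52.2 CPM with vehicle (1.05, adjusted p = 7.32e-06), and the mitochondrial and ER membrane immunophilin gene Fkbp8 averaged 244 CPM with Rb1 and 429.7 CPM with vehicle (-0.81, adjusted p = 1.21e-06).

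Hspb7, a small heat shock protein gene best known from heart and muscle, was well counted in this cell line, at 309 and 308 CPM with Rb1, against 355 and 348 CPM with vehicle (log2 fold change -0.19, adjusted p = 0.0283). Hspb1 in the same libraries had 2 counts in all. Of 20 pseudogenes annotated for heat shock proteins, chaperonins, calreticulin, calnexin or disulfide isomerases, 5 had any count, and together they held 267 and 253 counts with Rb1 and 342 and 187 with vehicle. Hspd1-ps3 held most of these, 238 and 238 with Rb1 and 318 and 157 with vehicle, where Hspd1 itself had 21553 and 21605 counts with Rb1 and 8494 and 8557 with vehicle.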
